A study of Homo sapiens with 28 samples.

Results

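The genes of the AP-1 transcription factor family were examined for histone H3 lysine 27 acetylation (H3K27ac) in SW872 cells. They are the 4 FOS genes FOS, FOSB, FOSL1 and FOSL2 and the 3 JUN genes JUN, JUNB and JUND. The 7 members follow from the family's gene names, with no measured value in the rule, and 1 start site in GRCh37/hg19 was given for each. A peak belonged to a promoter when its summit lay within 2 kb of that start site, and to the surroundings when its summit lay within 50 kb. Of 654580 peaks in 14 lists, 110 had a summit within 2 kb and 902 within 50 kb of a start site.

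AP-1 is a dimer of leucine zipper proteins that binds a short palindromic DNA element. JUN proteins pair with each other or with FOS proteins, whereas FOS proteins need a JUN partner to bind DNA. FOS, FOSB, JUN and JUNB are known as immediate early genes that growth factors and stress induce within minutes, and AP-1 sites lie beside TEAD sites in many enhancers that YAP and TAZ occupy. H3K27ac marks active promoters and enhancers.

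SW872 is an established human liposarcoma line, here carrying stably transduced constructs and assayed in biological duplicate, 2 libraries for each of 7 labels. Beside the empty vector, the labels named 2 sarcoma fusions (TAZ-CAMTA1, YAP-TFE3), the full-length proteins that give the fusions their C-terminal end (CAMTA1, TFE3), and TAZ4SA with YAP5SA, active forms in which serines that restrain TAZ and YAP are replaced by alanine. Per the labels, cells had reached 90% confluence 48 h before they were collected, except CAMTA1 cells, which were sub-confluent. The study's ChIP methods make no such exception for CAMTA1, and whether cell density differed for this label was not settled here. The retroviral constructs, which were Flag-tagged, were expressed on top of the cells' own YAP, TAZ, CAMTA1 and TFE3. The lists held 5721 to 102009 peaks, the second shortest 21748, and both TAZ4SA lists were the longest. In 14 of 14 lists the construct written in the peak names was not the label's. In lists labelled empty vector it was CAMTA1, while TAZ4SA carried empty vector, YAP5SA carried TFE3, TAZ-CAMTA1 carried TAZ4SA, YAP-TFE3 carried YAP5SA, CAMTA1 carried TAZ-CAMTA1 and TFE3 carried YAP-TFE3. Both lists of a label carried the same construct in 7 of 7 labels. Libraries are called by their labels below, and each direction between labels holds only under that naming. Markers of the liposarcoma line were not analysed here.

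The promoters with a peak summit within 2 kb of the start in every library are shown first. They are those of FOS, FOSL2, JUN and JUND. The 250 bases before the RefSeq start of each gene were taken from the GRCh38.p14 promoter table, which held 6 of the 7 members and no entry for FOSL1. Coordinates of GRCh38.p14 are not those of the peak lists, and a RefSeq start need not be the start site used for the peaks. Capitals mark the only match found among the searched elements.
FOS, chr14:75278578-75278827, plus strand: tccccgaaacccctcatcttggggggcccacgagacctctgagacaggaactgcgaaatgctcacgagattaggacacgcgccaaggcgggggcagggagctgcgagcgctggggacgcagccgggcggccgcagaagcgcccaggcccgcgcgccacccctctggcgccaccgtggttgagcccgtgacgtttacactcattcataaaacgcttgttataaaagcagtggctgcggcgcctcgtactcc
FOSL2, chr2:28392608-28392857, plus strand: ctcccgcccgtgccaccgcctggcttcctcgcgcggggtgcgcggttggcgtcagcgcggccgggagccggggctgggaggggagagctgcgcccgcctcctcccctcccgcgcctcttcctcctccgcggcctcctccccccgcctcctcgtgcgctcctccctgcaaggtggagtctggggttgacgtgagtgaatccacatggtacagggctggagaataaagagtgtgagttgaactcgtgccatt
JUN, chr1:58784048-58784297, minus strand: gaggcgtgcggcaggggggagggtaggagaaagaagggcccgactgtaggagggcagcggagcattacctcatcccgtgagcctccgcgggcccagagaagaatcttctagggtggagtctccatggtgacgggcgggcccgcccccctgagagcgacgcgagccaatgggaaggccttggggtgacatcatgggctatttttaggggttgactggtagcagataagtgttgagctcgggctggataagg
JUND, chr19:18281623-18281872, minus strand: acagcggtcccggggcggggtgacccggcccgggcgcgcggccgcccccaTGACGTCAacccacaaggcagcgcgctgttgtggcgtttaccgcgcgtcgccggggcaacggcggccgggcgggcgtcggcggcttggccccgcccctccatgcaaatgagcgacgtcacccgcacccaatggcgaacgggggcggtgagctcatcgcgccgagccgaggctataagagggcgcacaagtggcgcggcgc

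The elements searched on both strands were the AP-1 element TGACTCA, the cAMP response element TGACGTCA, the TEAD element GGAATG and the CArG box, which serum response factor binds. Among 35116 promoters of this length, 4.20% held the AP-1 element, 1.65% the cAMP response element, 11.9% the TEAD element and 1.16% the CArG box. The JUND promoter held a cAMP response element from −200 to −193 bases relative to the start. None of these letters occurred in the windows of FOS, FOSB, FOSL2, JUN or JUNB, and degenerate forms were not searched. G and C made up 62.0% of the bases in JUN, 64.8% in FOS, 69.6% in FOSL2 and 74.8% in JUND, against a median of 58.0% over all promoters in the table.

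All members but FOSB had a peak that overlapped the promoter window in 14 of 14 libraries, and FOSB had one in 10. By the stricter criterion, a summit within 2 kb, FOS, FOSL2, JUN and JUND had a promoter peak in 14 of 14 libraries, FOSL1 in 11, FOSB in 10 and JUNB in 7. Of 98 combinations of gene and library 84 had such a summit, and 10 of the remaining 14 had a peak that reached into the window from a summit outside it. Peaks were ranked within each list by the −log10 p of the peak caller, rank 1 being the strongest. By the median rank over the libraries with a summit, the order was FOSL2 (541.5), FOS (952), JUN (1485), FOSL1 (1538), JUND (1643), JUNB (5605) and FOSB (11992). The ranges of neighbours in that order overlapped in each case. When any overlap counted, the FOSL1 median over 14 libraries was 834, which placed it between FOSL2 and FOS, and the JUNB median was 5485. As a share of the list, the median rank was 1.20% for FOSL2, 1.98% for FOS, 3.14% for JUN, 3.59% for FOSL1, 3.98% for JUND, 13.95% for JUNB and 23.5% for FOSB.

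**Figure D1:**
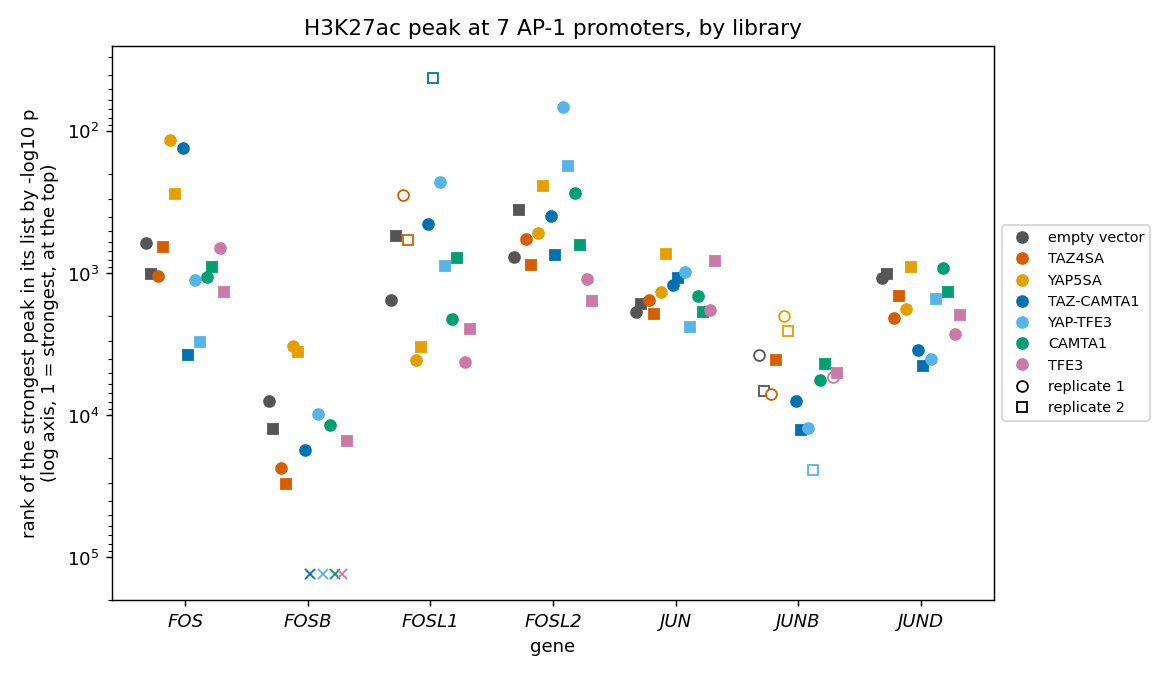
Rank of the strongest H3K27ac peak at each of 7 AP-1 promoters in 14 libraries, on an inverted log axis. Filled points have a summit within 2 kb, open points only an overlapping peak, and crosses, placed at an arbitrary height, no peak. FOSL2 lay between ranks 67 and 1563 and FOSB between 3244 and 30556 where a peak was present.

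FOSL2, which encodes FRA-2, a FOS protein without the strong transactivation domain of FOS, had the strongest promoter peak of the family by median rank and the broadest by median width. Its promoter peak ranked 768 and 356 in the empty vector libraries, 568 and 868 in TAZ4SA, 515 and 243 in YAP5SA and 392 and 740 in TAZ-CAMTA1. It ranked 67 and 174 in YAP-TFE3, 273 and 629 in CAMTA1 and 1097 and 1563 in TFE3. Both YAP-TFE3 libraries ranked ahead of all others and both TFE3 libraries behind all others. How often a label separates from the others in this way over all regions was not counted, here or for the genes below. The promoter peak was 8.84 kb wide in the median library, from 1.25 kb in TFE3 replicate 1 to 30.6 kb in TAZ4SA replicate 1. By width it ranked 75 to 531 in its lists, with a median rank of 180. The start site was covered by a peak in 14 of 14 libraries, and the summit lay 132 to 237 bases downstream of it in 12. In YAP5SA replicate 2 and TFE3 replicate 1 it lay upstream.

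FOS, the founding member of the family, had a narrower peak, and its summits were the most closely placed among the 4 genes with a promoter summit in every library. They lay between −171 and −57 bases from the start site in 14 of 14 libraries, which is inside the 250 bases before the start. The peak was 2.52 kb wide in the median library, from 0.285 to 3.53 kb. It ranked 612 and 1006 in the empty vector libraries, 1047 and 650 in TAZ4SA, 114 and 276 in YAP5SA and 131 and 3770 in TAZ-CAMTA1. It ranked 1118 and 3029 in YAP-TFE3, 1056 and 898 in CAMTA1 and 659 and 1343 in TFE3. The 2 TAZ-CAMTA1 libraries held the second strongest and the weakest FOS peak of the 14, so that the spread within this label was as wide as nearly the whole range.

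FOSL1, which encodes FRA-1, lay in a gene-dense stretch with 10 protein-coding neighbours within 50 kb, among them DRAP1, C11orf68, CCDC85B, FIBP, CFL1 and MUS81. FOS, FOSL2 and JUN had no such neighbour, FOSB and JUND had 4 each and JUNB had 8. These names came from the RefSeq table of GRCh38. A peak in the surroundings of a gene with neighbours need not be a regulatory element of that gene. In 11 libraries the FOSL1 promoter peak had its summit 328 to 905 bases downstream of the start, inside the gene. It ranked 1538 and 542 in the empty vector libraries, 4094 and 3311 in YAP5SA, 226 and 889 in YAP-TFE3, 2081 and 779 in CAMTA1 and 4180 and 2481 in TFE3. It ranked 452 in TAZ-CAMTA1 replicate 1. In the other 3 libraries, both of TAZ4SA and replicate 2 of TAZ-CAMTA1, a single peak 37.3, 36.3 and 26.9 kb wide covered the promoter, with its summit 18.3, 18.3 and 15.1 kb upstream. The strongest peak within 50 kb never had its summit in the promoter window, although in those 3 libraries it was the peak that covered the promoter. Its summit lay 15 to 19 kb upstream in 8 libraries and 40 to 42 kb downstream in 6, and ranked 42 to 584 in its list.

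FOSB, which encodes a FOS protein that also occurs as a truncated splice form, had the weakest promoter peak of the 7 by median rank. No library ranked its peak in the first 5% of the list, while FOSL2 did so in 13, FOS in 11, JUN in 10, JUND in 9, FOSL1 in 7 (10 when any overlap counted) and JUNB in 1. The peak ranked 7960 and 12380 in the empty vector libraries, 23320 and 30556 in TAZ4SA and 3244 and 3569 in YAP5SA. It ranked 17433 in TAZ-CAMTA1 replicate 1, 9704 in YAP-TFE3 replicate 1, 11604 in CAMTA1 replicate 1 and 15076 in TFE3 replicate 2. Both YAP5SA libraries ranked it ahead of all others. The other libraries of the last 4 labels held no peak that reached into the window, which at an unknown read depth does not show that the mark was absent. The summit lay 1055 to 1717 bases downstream of the start in 9 of the 10 libraries, and only 2 had a peak over the start site itself.

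JUN, the founding JUN gene, ranked between 731 and 2391, the narrowest range on a log scale among the 4 genes with a promoter peak in every library. It ranked 1859 and 1635 in the empty vector libraries, 1529 and 1921 in TAZ4SA, 1354 and 731 in YAP5SA and 1211 and 1085 in TAZ-CAMTA1. It ranked 976 and 2391 in YAP-TFE3, 1441 and 1879 in CAMTA1 and 1815 and 816 in TFE3. Both YAP5SA and both TAZ-CAMTA1 libraries ranked it ahead of both libraries of empty vector, TAZ4SA and CAMTA1, while YAP-TFE3 and TFE3 each overlapped all other labels. The summit lay upstream of the start in 9 libraries and downstream in 5, and 8 libraries had a peak over the start site, so that the acetylated stretch was often split there. JUND, the JUN gene known to be expressed in most resting cells, was split in the same place more often. Only 2 libraries had a peak over its start site, and 12 had 2 or more summits in the window. The strongest lay between −836 and −517 bases from the start, which is upstream. JUND ranked 1070 and 1009 in the empty vector libraries, 2054 and 1453 in TAZ4SA, 1784 and 899 in YAP5SA and 3471 and 4520 in TAZ-CAMTA1. It ranked 3990 and 1502 in YAP-TFE3, 909 and 1356 in CAMTA1 and 2667 and 1975 in TFE3.

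JUNB, whose product activates less strongly than JUN at many AP-1 sites, had its summits at the edge of the promoter window. In the 7 libraries with a summit within 2 kb the summit lay between −1742 and −1655 bases from the start. These libraries ranked it 4096 (TAZ4SA replicate 2), 7941 and 12681 (TAZ-CAMTA1), 12160 (YAP-TFE3 replicate 1), 5605 and 4364 (CAMTA1) and 5013 (TFE3 replicate 2). The other 7 had an overlapping peak whose summit fell outside the window. When any overlap with the window counted, the rank was 3764 and 6774 in the empty vector libraries, 7037 and 4096 in TAZ4SA and 2007 and 2537 in YAP5SA. On that criterion it was 7941 and 12681 in TAZ-CAMTA1, 9760 and 24055 in YAP-TFE3, 5605 and 4364 in CAMTA1 and 5365 and 5013 in TFE3. The 4 fusion libraries then ranked JUNB behind the 10 others, on a criterion added after the values were seen. TFE3 replicate 1, at rank 5365 of 5721 peaks, could not have fallen behind them. How often other regions separate in this way was not counted.

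**Figure D2:**
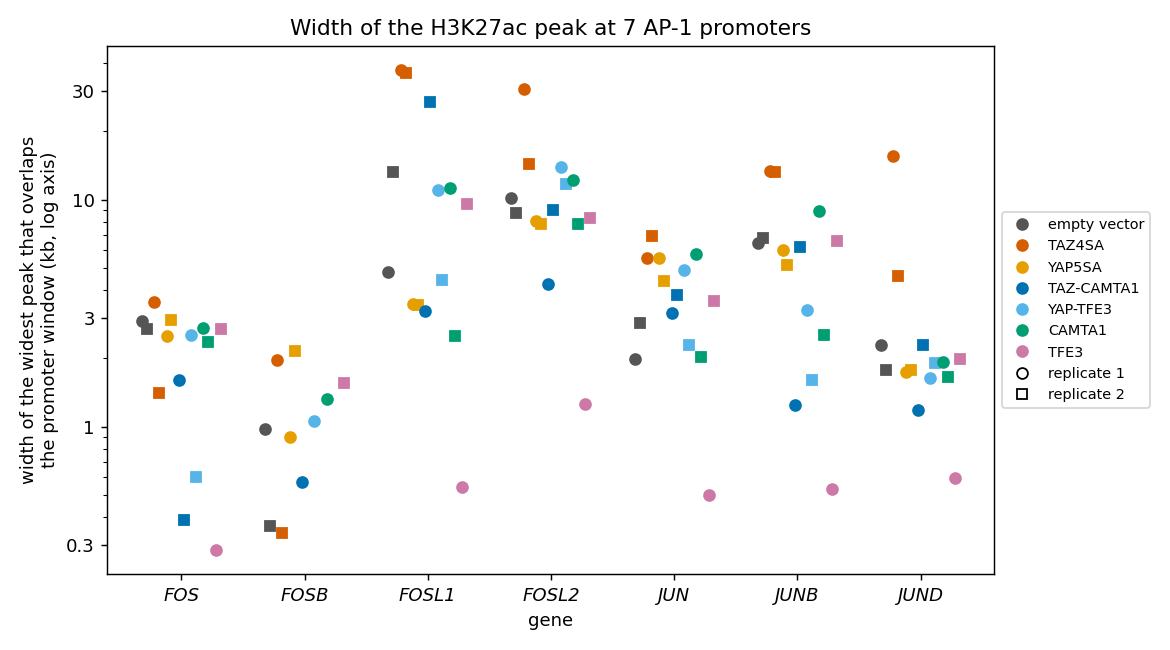
Width of the widest H3K27ac peak that overlapped the window of 2 kb either side of each start site, in kb on a log axis, 1 point per library. FOSL2 had a median of 8.84 kb and FOS of 2.52 kb, and the widest peaks, 37.3 and 36.3 kb, were those over FOSL1 in the TAZ4SA libraries.

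Whether the rank of a promoter differed between labels was tested with the share of the variance of log2 rank that lay between labels, over all 135135 ways to divide 14 libraries into 7 pairs. This exact one-sided permutation test does not depend on which naming is used. A library with no summit took the rank after the last of its list, which was so in 3 of 14 libraries for FOSL1, 4 for FOSB and 7 for JUNB, and such a value is a list length, not a measured rank. FOSL2 was the 1 member of 7 with p under 0.05. The labels held 80.1% of its variance, exact permutation p = 0.0226. For the other 6, p ranged from 0.0706 (JUND) to 0.648 (JUN). Over the 4061 merged regions with a peak in all 14 libraries, the same test gave p under 0.05 in 23.9%. There each region took the best rank of any peak in it, so that 1 of 7 by summit, no higher a share, is another measure. By region, JUNB (82.1% of the variance, exact permutation p = 0.00765) passed beside FOSL2, among 6 members with such a region. Adjusted over those regions by the Benjamini-Hochberg method, the exact permutation p was 0.157 for the FOSL2 region and 0.122 for the JUNB region. The FOSL2 value was 0.125 without YAP-TFE3 replicate 1, 0.0589 without TFE3 replicate 1 and 0.0920 without TFE3 replicate 2, each an exact permutation p. When any overlap counted as a promoter peak, a criterion added after the values were seen, JUNB (83.1% of the variance, exact permutation p = 0.0117) and FOSL1 (76.2%, exact permutation p = 0.0435) passed as well.

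Combined comparisons were made, because 2 libraries against 2 cannot give an exact two-sided p below 0.333. The fusions were set against the active forms and against the full-length partners, 4 libraries against 4, and the 6 constructs against empty vector, 12 against 2. One of the 21 exact two-sided permutation tests passed 0.05. JUNB ranked 1.53 log2 units further down in the fusions than in the full-length partners, exact permutation p = 0.0286, the smallest that 70 splits allow. The groups did not overlap, but 2 of the 8 values were ranks after the last of a list, 39654 in YAP-TFE3 replicate 2 and 5722 in TFE3 replicate 1, whose list is the shortest. By any overlap, which gives each of the 8 libraries a measured rank, the difference was 1.29 (exact permutation p = 0.0286). The rank in TFE3 replicate 1 was then 5365 in a list of 5721 peaks. It could not fall behind the fusion ranks, 7941 and more, so list length also bears on this test. Over the shared regions, p under 0.05 was found for 14.1% of them in this comparison, for 15.6% in fusions against active forms and for 2.63% in constructs against empty vector. By that region measure the JUNB difference from the partners was 1.12 (exact permutation p = 0.0286, Benjamini-Hochberg adjusted 0.202). FOSL1 differed by −2.27 from the active forms (exact permutation p = 0.0286, adjusted 0.183). The other 20 tests of summit rank gave exact permutation p from 0.0857 to 1. JUNB in fusions against active forms was −0.75 log2 units by summit (exact permutation p = 0.543) and 1.83 units by overlap (exact permutation p = 0.0286). By summit, 3 active-form libraries and 1 fusion library had none in the window and took the rank after the last. In constructs against empty vector neither empty vector library had a JUNB summit, and by any overlap the difference was 0.25 (exact permutation p = 0.736). For FOSL1, both TAZ4SA libraries and TAZ-CAMTA1 replicate 2 had no summit, although peaks ranked 281, 584 and 42 covered the promoter. By any overlap the FOSL1 difference was −2.30 in fusions against active forms (exact permutation p = 0.171) and −0.10 in constructs against empty vector (exact permutation p = 0.956). Grouped by peak name, none of the 4 full-length partner libraries had a JUNB summit, so that a summit rank cannot be compared. Their overlap ranks were 3764, 6774, 2007 and 2537, against 5605, 4364, 5365 and 5013 in the libraries then named as fusions, and these ranges overlapped. The JUNB call was lost when the lists were brought to equal length (0.15 log2 units, exact permutation p = 0.143) and when rank was a percentage of the list (0.89, exact permutation p = 0.400). Without any 1 of the 2 CAMTA1 or 2 TFE3 libraries the exact permutation p was 0.0571, at differences of 1.45 to 1.58.

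Across the 14 libraries, the log2 ranks of FOS, FOSL2, JUN and JUND moved together little. Over the 6 pairs of the 4 genes with a measured rank in every library, Spearman's rho ranged from −0.24 (JUN and JUND) to 0.29 (FOS and JUND), a description over 14 libraries that share their lists' depth.

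The height of the peaks was compared in the merged regions that all 14 libraries shared, by the fold enrichment over local background that the caller gave, as log2 and quantile-normalised across libraries. Shared regions lay over the start sites of 6 members, all but FOSB. The value is that of the highest peak anywhere in the merged region, which was the best-ranked peak reaching into the promoter window in 14 of 14 libraries for FOS and FOSL2, 13 for JUN, 12 for JUND, 10 for JUNB and 4 for FOSL1. The FOSL1 values therefore do not measure its promoter. For JUNB the exceptions were TAZ-CAMTA1 replicate 2, both YAP-TFE3 libraries and TFE3 replicate 1, so its fusion values are mostly not those of the promoter peak. On this scale FOSL2 had a mean of 4.95 ± 0.22 (SD, n = 2) in YAP-TFE3, 4.49 ± 0.16 in YAP5SA, 4.34 ± 0.15 in TAZ-CAMTA1, 4.29 ± 0.35 in CAMTA1, 3.97 ± 0.39 in empty vector, 3.97 ± 0.44 in TAZ4SA and 3.78 ± 0.26 in TFE3. Both YAP-TFE3 values, 5.11 and 4.79, lay above the 12 others. JUNB was highest in YAP5SA, at 3.90 ± 0.02 (SD, n = 2), and lowest in YAP-TFE3, at 2.67 ± 0.41, and both YAP5SA values, 3.92 and 3.89, lay above the 12 others. How many of the 4061 shared regions have both libraries of a label above all others was not counted. Such a separation is therefore not read as a trait of these genes. For JUNB, empty vector stood at 3.29 ± 0.35, TAZ-CAMTA1 at 3.21 ± 0.22 and TAZ4SA at 3.09 ± 0.40. For JUN the label means lay between 3.82 and 4.14. The FOS means lay between 3.62 ± 0.39 in YAP-TFE3 and 4.54 ± 0.48 in YAP5SA.

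**Figure D3:**
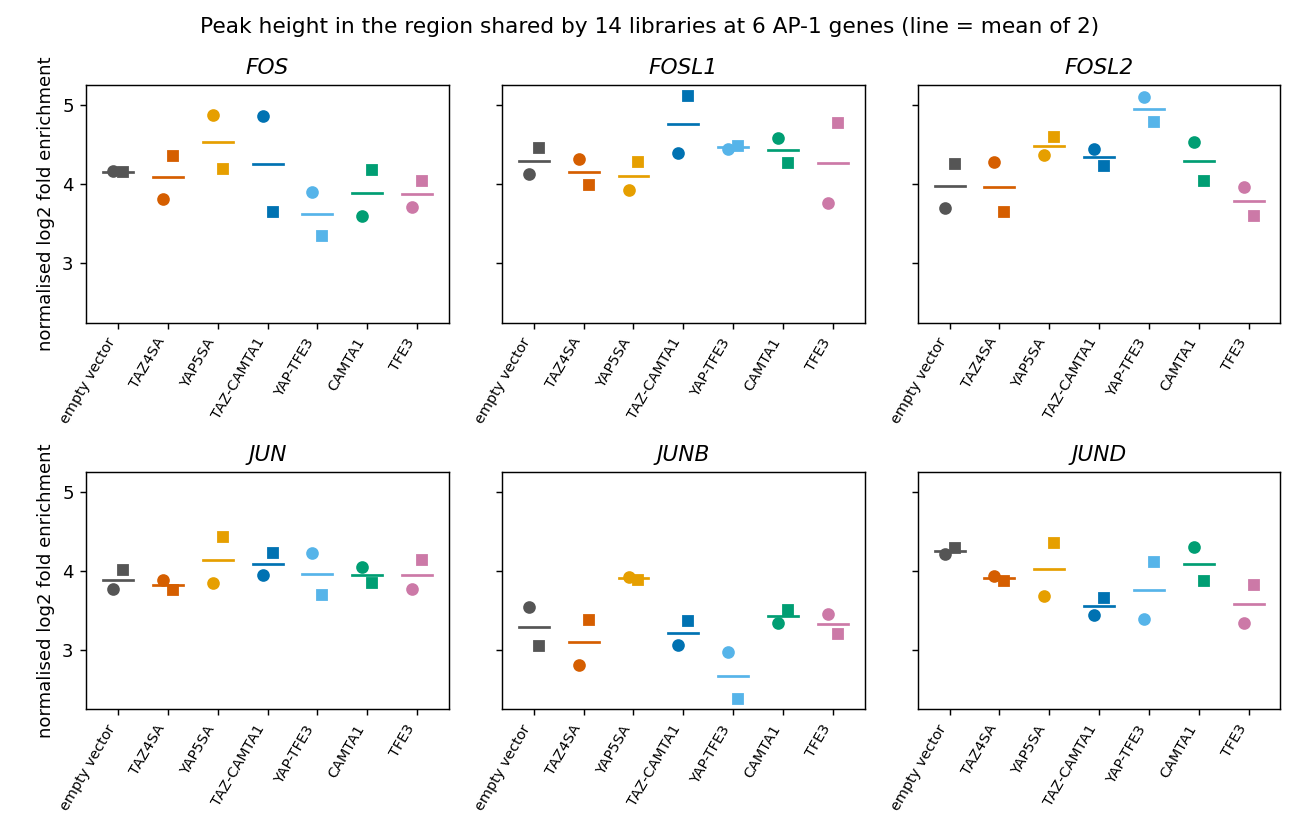
Quantile-normalised log2 fold enrichment of the highest peak in the region shared by all 14 libraries at 6 AP-1 genes, 1 point per library and a line at the mean of each label (n = 2). For FOSL2 both YAP-TFE3 points, and for JUNB both YAP5SA points, lay above all others. The share of other regions with such a separation was not counted.

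No member passed limma's moderated F test between the 7 labels, adjusted over 4061 regions by the Benjamini-Hochberg method, while 3.45% of the regions did. The smallest limma adjusted p of a member was 0.164 (FOSL2), followed by 0.205 (JUNB). No member passed in fusions against active forms, where 5.64% of regions did, nor in fusions against full-length partners, where 2.81% did. In constructs against empty vector limma called 0 of 4061 regions (0%), while 233 had an unadjusted p under 0.05. FOSL2 was 0.61 ± 0.23 log2 units (SE) higher in the fusions than in the full-length partners (limma adjusted p = 0.151), and 0.42 ± 0.23 higher than in the active forms (limma adjusted p = 0.326). The JUNB difference between fusions and active forms was −0.56 ± 0.23 (SE, limma adjusted p = 0.154). YAP-TFE3 was below YAP5SA, whereas TAZ-CAMTA1 was not below TAZ4SA in the mean, and the difference of these differences, TAZ minus YAP, was 1.35 ± 0.46 (SE, limma adjusted p = 0.389). In TAZ-CAMTA1 replicate 2 the JUNB value was a fold of 12.5 from elsewhere in the region. The best-ranked peak that reached into the promoter window had 5.73 there, so this difference is not one of promoter peaks alone. Of the 6 regions, 3 were higher and 3 lower in fusions than in active forms, and 4 were higher and 2 lower than in the full-length partners, none past the threshold. With the −log10 p of the peaks in place of their fold, the JUNB difference from the active forms was −0.90 (limma adjusted p = 0.0280), the only 1 of 476 values of members under the alternatives that passed. Under that alternative 555 of the 4061 regions passed in the same comparison.

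The 7 windows of 100 kb, promoters included, held 104 merged regions. Of these 13 were present in all 14 libraries (12.5%), against 2.93% of all merged regions. The 13 include the regions over the start sites of 6 members, all but FOSB, so the share is not one of distant regions. In 1 library only were 49 (47.1%), against 55.4%. The shared regions were 3 each at FOS and FOSB, 2 each at FOSL1 and JUN and 1 each at FOSL2, JUNB and JUND, where it was the region over the start site. FOS had 1 region 22.1 to 18.0 kb upstream and another 12.9 to 17.9 kb downstream, with median ranks of 2590.5 and 6252.5, beside the promoter at 952. FOSB had stronger regions at a distance than at its promoter. One region 10.2 to 11.2 kb downstream, present in 13 libraries, had a median rank of 2528, and regions from 38.3 kb upstream outward and from 36.0 to 49.0 kb downstream were present in all 14. JUN had a broad region 14.78 to 43.97 kb downstream of its start, 29196 bp long when merged over libraries, with a median rank of 3024. At FOSL1 the 2 shared regions ran from 24.2 kb upstream to 16.1 kb downstream and from 25.7 to 46.4 kb downstream, with median ranks of 279.5 and 391. The merged regions over the start sites of FOSL2, from 9.19 kb upstream to 23.3 kb downstream, and JUND, from 29.7 kb upstream to 7.96 kb downstream, were shorter than the one over FOSL1.

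**Figure D4:**
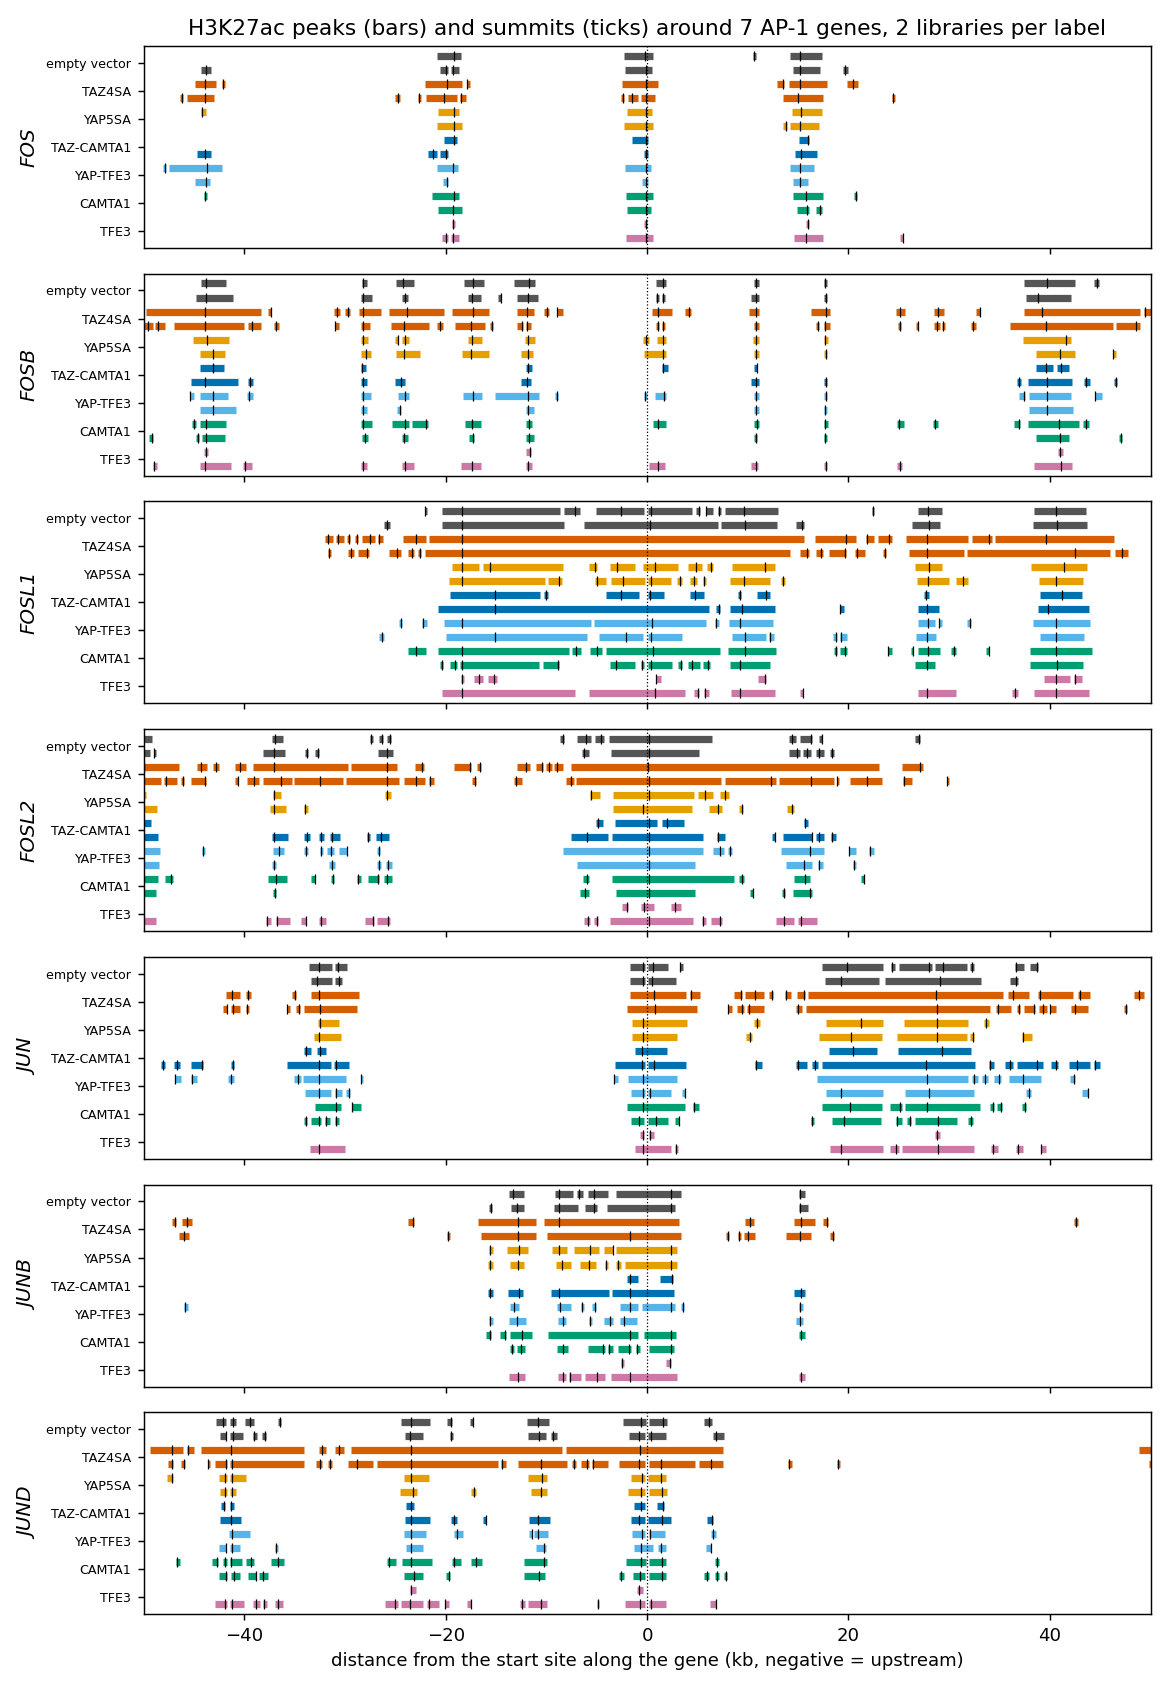
H3K27ac peaks (bars) and their summits (ticks) within 50 kb of 7 AP-1 start sites, by distance in kb along the gene, 2 rows per label in replicate order. The TAZ4SA rows are filled most, and the FOS window has the fewest summits, a median of 4.5 per library.

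The length covered by peaks followed the length of the list. Within 50 kb of the 7 start sites, from 15.1 kb (TFE3 replicate 1) to 315 kb (TAZ4SA replicate 1) of 700 kb was covered. The empty vector libraries covered 129 and 130 kb, TAZ4SA 315 and 282 kb, YAP5SA 113 and 113 kb and TAZ-CAMTA1 64.1 and 151 kb. YAP-TFE3 covered 151 and 103 kb, CAMTA1 153 and 96.2 kb and TFE3 15.1 and 134 kb. For each of the 7 members, both TAZ4SA libraries covered more than any other library, as they did in 83.5% of all 3490 fixed windows of 100 kb with a peak in every library. Over 14 libraries Spearman's rho between covered length and list length was 0.72 (JUND) to 0.94 (FOSL1), a description only. FOSL1 had the longest covered stretch, with a median of 37.9 kb, and FOS the shortest, with 8.19 kb.

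With every list brought to the 5721 strongest peaks of the shortest, TAZ4SA still covered the most, 177 and 154 kb, and the other libraries 15.1 to 91.6 kb. The median peak width over all these peaks was then 5.14 and 4.37 kb in TAZ4SA and 0.486 to 3.48 kb elsewhere. FOSB, FOSL1, FOSL2 and JUND kept this order, with both TAZ4SA libraries above the others, against 46.9% of the 3490 windows. FOS, JUN and JUNB did not. JUN was covered most in TAZ-CAMTA1 replicate 2, over 26.3 kb, against 24.9 and 25.2 kb in TAZ4SA. JUNB was covered over 0 and 13.3 kb in TAZ4SA. The covered length of FOS at equal list length was 3.53 and 1.40 kb in TAZ4SA, against 8.36 and 6.93 kb in empty vector and 7.54 and 8.35 kb in YAP5SA. Covered length did not pass the exact pairing test for any of the 7 members (exact permutation p from 0.167 for JUND to 0.410 for JUNB), and 3.81% of the 3490 windows passed. Without TFE3 replicate 1, JUND passed (exact permutation p = 0.0301), against 15.4% of the windows. Without TFE3 replicate 2, which leaves the shortest list alone in its label, 6 members passed, all but JUNB, against 80.5% of the windows. At equal list length FOSL2 passed, exact permutation p = 0.0384, against 11.8% of the windows.

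**Figure D5:**
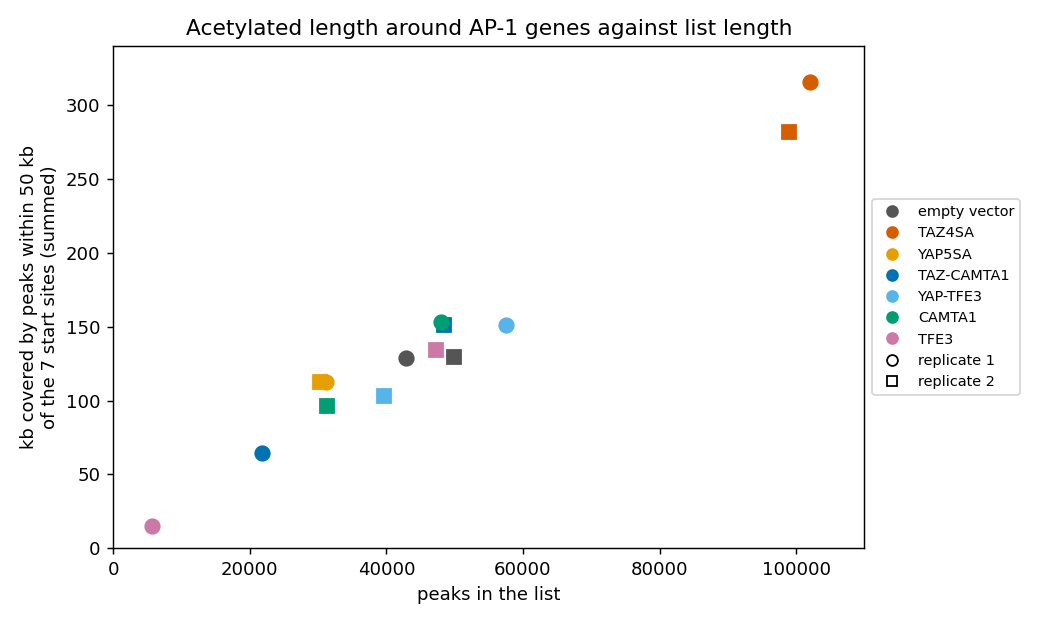
Length covered by H3K27ac peaks within 50 kb of 7 AP-1 start sites, summed, against the number of peaks in the list, 1 point per library. The points rise from 15.1 kb at 5721 peaks to 315 kb at 102009 peaks.

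Regions were counted as gained when both libraries of a label and neither empty vector library had a peak, and as lost in the opposite case. With 2 libraries against 2 this has no test. TAZ4SA gained 21 of the 104 regions (20.2%), against 15.5% of all 138757 merged regions, namely 5 at FOSL1, 4 each at FOSL2 and JUN, 3 each at FOSB and JUND and 2 at JUNB. None was gained at FOS. None was lost in TAZ4SA, against 0.176% of all regions. Of the regions, 12 (11.5%) had a peak in both TAZ4SA libraries and in no other, against 9.55% of all merged regions. YAP5SA gained 1 region, 9.74 to 11.7 kb downstream of JUN (background 0.265%), and lost 1, 13.8 to 16.7 kb downstream of JUNB (background 1.95%). TAZ-CAMTA1 lost 1 region, from −19.35 to −15.67 kb at FOSB, upstream of its start (background 1.24%), and gained none (background 0.411%). YAP-TFE3, CAMTA1 and TFE3 gained and lost none. Over all regions YAP-TFE3 gained 1.99% and lost 0.748%, CAMTA1 gained 0.334% and lost 1.1%, and TFE3 gained 0.00937% and lost 1.52%. Grouped by peak name, which makes the long TAZ4SA lists the empty vector, 0 regions were gained and 119 lost when each region was counted once per construct. The part of list length in the TAZ4SA gains was not tested beyond the lists of equal length, where 6 regions were gained and 6 lost over the 6 constructs, against 22 and 2 in the full lists. The shares over all merged regions are not given by peak name or at equal list length. These counts are therefore not read as a trait of the AP-1 windows.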

How the data were processed

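H3K27ac ChIP-seq of SW872 cells was read from 14 deposited narrowPeak lists, 1 per library. Per the submitters' processing notes and the study's methods, the authors aligned trimmed reads with BWA-MEM to GRCh37/hg19, dropped reads that map to several places or to greylisted regions, and used MACS2 on paired-end fragments to call peaks. Antibody labels say H3K27ac, while the extraction text that all samples share describes an anti-Flag precipitation. The methods state that replicates were pooled and a q limit of 0.1. The lists used here are per library, with a lowest −log10 q of 1.30 in any list. The deposited columns used were a fold enrichment ratio at the summit, −log10 p and −log10 q values, and the summit offset. The integer score column was deposited too and not used. The 14 input libraries were not analysed here. Reads per library are not in the lists, so the depth behind each value is unknown, and a longer list can reflect depth as well as acetylation.

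The rule for members is by name, but the family and lists were chosen with earlier results of these data known. Groups came from the labels. Every member was named, and within 50 kb the 3 regions with the best median rank per member that had peaks in both libraries of a label. Genes near a member were named from another build. Peaks were ranked within their list (rank 1 = highest −log10 p). Overlapping peaks were merged across lists, and fixed windows of 100 kb gave the background of covered length. Exact permutation tests used all pairings of 14 libraries, or all splits, after checks on simulated data. Covered length was log2(bp + 100). Shared regions were tested with limma 3.58.1 (R 4.3.3) on quantile-normalised log2 fold, 7 labels in 1 fit, Benjamini-Hochberg adjusted. Python 3.11.15 was used otherwise. Alternatives were a −log10 q of at least 2 or 5, lists of equal length, windows of 1, 5 or 10 kb, any overlap (added after seeing the data), rank by fold or as a percentage, a pseudocount of 1 bp, median centring, −log10 p in place of fold, stitching within 1000 bp, a replicate block, the construct in the peak names and each library left out. Other AP-1 partner genes and the share of all start sites with a peak need an hg19 annotation, and are not analysed here.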

Additional observations from a re-analysis of the deposited data

How the results depend on the processing

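FOS, FOSL2, JUN and JUND were called in 14 libraries at each q threshold, list length and window tried, and 6 members were when any overlap counted. FOSB, called in 10 libraries, was called in 2 at equal list length and 3 with a window of 1 kb, and JUNB, called in 7, in 4, 0, 13 and 14 at equal list length, with windows of 1 and 5 kb and with any overlap. Member differences between groups took the opposite sign in 67 of 840 values under alternatives, and 3 passed 0.05. Unknown read depth limits comparisons of peak number, width or absence, and 2 libraries per label the rest. The cause of the changes was not tested.

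Promoter rank passed the pairing test in 3 members when any overlap counted. In the combined comparisons the count of 1 became 0 at equal list length, 0 for rank as a percentage, 0 with the replicate block, 2 when any overlap counted and 3 when grouped by peak name. For JUNB, fusions minus active forms turned to 0.12 log2 units at equal list length, 0.87 with a window of 5 kb and 1.83 with any overlap, and constructs minus empty vector, −1.90 with no JUNB summit in empty vector, to 0.53 and 0.25 under the last 2. For FOSL1, constructs minus empty vector turned from 2.07 to −0.10 with any overlap. Grouped by peak name, FOSL1 fusions minus active forms was 0.48, FOSL1 constructs minus empty vector −5.84, JUNB fusions minus full-length partners −2.87, the FOSL2 shared region in that comparison −0.19, and the JUNB shared region in fusions minus active forms 0.43. The −5.84 and −2.87 rest on list lengths, since by peak name no empty vector library has a FOSL1 summit and no full-length partner library a JUNB summit. Covered length passed in 1 member at equal list length. No shared JUNB region was left at a −log10 q of at least 5.

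Regions gained and lost around the genes, 22 and 2, became 7 and 4 at a −log10 q of at least 5, 6 and 6 at equal list length, 11 and 1 after stitching, and 0 and 119 by peak name. Shared regions that differ between labels were 140 in the limma fit, 230 with median centring, 460 with −log10 p, each of 4061 tested, and 54 of 2406 at a −log10 q of at least 5. The last 2 gave 555 and 98 for fusions against active forms, against 229, and 341 and 49 for fusions against full-length partners, against 114. By peak name the 3 limma contrasts called 114, 1 and 139, the last for constructs against empty vector.

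With each library left out in turn, members that passed for rank were 0 (without TFE3 replicate 1 or replicate 2) to 3 (without TAZ-CAMTA1 replicate 1 or replicate 2), with 2 without any 1 TAZ4SA or YAP-TFE3 library. Rank comparisons that passed were 0 (without any 1 CAMTA1 or TFE3 library) to 2 (without TAZ4SA replicate 1 or YAP-TFE3 replicate 2), and members that passed for covered length 0 to 6, the 6 without TFE3 replicate 2, with 1 without TFE3 replicate 1. Regions gained were 22 to 66, the highest without TAZ4SA replicate 1, with 51 without replicate 2. Regions lost were 2 to 18, the highest without empty vector replicate 2, with 14 without TFE3 replicate 2, 11 without empty vector replicate 1, 7 without TAZ-CAMTA1 replicate 2 and 4 without CAMTA1 replicate 1 or YAP-TFE3 replicate 1. Shared regions that differ between labels were 26 (without YAP-TFE3 replicate 1) to 626 (without TFE3 replicate 1, of 10447 tested), with 47 without either TAZ4SA library, 58 without YAP-TFE3 replicate 2, 75 and 79 without YAP5SA replicate 1 and 2, and 272 without TFE3 replicate 2. Fusions against active forms gave 108 to 1318 and fusions against full-length partners 48 to 542, lowest and highest without the same 2 libraries. The former were 110 without TAZ4SA or YAP5SA replicate 1 and 145 without TAZ4SA replicate 2, the latter 62 without CAMTA1 replicate 2 and 73 without YAP-TFE3 replicate 2. A lone library was assumed to vary like the other labels.

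Replicate numbers did not pair the libraries: over 21 pairs of labels the correlation of same-numbered deviations had a median of 0.01 and exceeded 0.1 in 1. With the replicate block FOSL2 rank had an exact permutation p of 0.0560 and FOSB of 0.00972, and the shared regions that differ between labels were 150.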
